A study of Rattus norvegicus with 24 samples.

Results

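Neurogenic basic helix-loop-helix (bHLH) genes and genes of intermediate progenitors were examined in the fetal rat hippocampus and neocortex on embryonic day 18. The genes were fixed by name, and 8 were named: Neurog1, Neurog2, Neurod1, Neurod2, Neurod4, Neurod6, Eomes and Insm1. Of the 17420 genes in the expression table, 5 are among these 8, namely Neurog1, Neurod4, Neurod1, Neurod2 and Neurod6. Neurog2, Eomes and Insm1 were not analysed here. Throughout, the 5 genes are compared across maternal treatments as log2 of TPM, a level normalized to the length of the gene and the size of the library.

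RNA was sequenced from 24 pups of timed-pregnant Sprague-Dawley dams, 6 pups in each of 4 groups. Saline dams were injected on gestational day 17, and the control diet held 20.3% protein. MAM dams received methylazoxymethanol acetate, a DNA-alkylating agent that hits dividing cells, at 22 mg/kg on the same day. Poly I:C dams received a synthetic double-stranded RNA that mimics viral infection, at 7.5 mg/kg on the same day. Low Protein dams ate a diet with 6.1% protein from gestational day 11. Tissue was taken on day 18, 18 hours after injection. The diet of the MAM and Poly I:C dams and any injection of the Low Protein dams are not given in the sources used here. A group is made up of 2 litters with 3 pups taken from each, so its pups come from 2 dams. No label names the litter of a pup. The first number of a sample name was read as litter and the second as pup (Saline 2-1 is taken as pup 1 of litter 2). Every result by litter below rests on this reading. The p-values below are over pups and measure the spread between pups. Pups of a litter share a dam, and with 2 dams a group an exact test of litter means could not go below 0.333.

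The named genes follow each other in the making of a cortical excitatory neuron. Radial glia at the ventricle switch on proneural bHLH factors of the Neurogenin family. Many of their daughters pass through an intermediate progenitor, marked by the T-box factor Eomes and by the zinc-finger factor Insm1, and factors of the NeuroD family then take over as the cell leaves the cycle and becomes a pyramidal neuron. These bHLH proteins pair with ubiquitous E proteins and bind a short DNA element called the E-box, while Id proteins and the Hes and Hey repressors oppose them.

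The 250 bases before the RefSeq start of Neurog1, Neurod1, Neurod2 and Neurod6 are shown because 4 of the 6 pairs of these genes varied together over pups, as described below. They are written 5′ to 3′ on the gene's own strand in build GRCr8, with every E-box (CANNTG, which reads alike on both strands) in capitals. The Neurog1 sequence is the plus strand of chr17:8367846-8368095, Neurod1 the minus strand of chr3:84770455-84770704, Neurod2 the minus strand of chr10:83824278-83824527 and Neurod6 the minus strand of chr4:86180156-86180405.
Neurog1: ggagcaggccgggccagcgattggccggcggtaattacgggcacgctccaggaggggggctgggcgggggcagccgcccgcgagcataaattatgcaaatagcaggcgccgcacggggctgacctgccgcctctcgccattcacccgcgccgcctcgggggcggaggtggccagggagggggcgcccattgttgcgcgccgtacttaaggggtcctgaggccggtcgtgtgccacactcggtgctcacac
Neurod1: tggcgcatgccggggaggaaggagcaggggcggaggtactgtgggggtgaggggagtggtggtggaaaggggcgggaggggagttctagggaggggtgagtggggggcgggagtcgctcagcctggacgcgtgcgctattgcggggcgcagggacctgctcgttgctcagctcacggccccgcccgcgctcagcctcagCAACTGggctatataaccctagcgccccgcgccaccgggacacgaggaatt
Neurod2: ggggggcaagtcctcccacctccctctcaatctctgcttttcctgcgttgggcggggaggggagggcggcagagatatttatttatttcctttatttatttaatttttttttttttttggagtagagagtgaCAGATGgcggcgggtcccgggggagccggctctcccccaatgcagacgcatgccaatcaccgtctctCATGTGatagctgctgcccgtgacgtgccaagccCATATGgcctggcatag
Neurod6: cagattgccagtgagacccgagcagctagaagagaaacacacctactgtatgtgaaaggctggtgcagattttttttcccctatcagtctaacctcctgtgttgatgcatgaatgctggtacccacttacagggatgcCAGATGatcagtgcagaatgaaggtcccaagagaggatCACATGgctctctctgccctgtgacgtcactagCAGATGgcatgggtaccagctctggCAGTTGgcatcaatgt

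The Neurog1 sequence holds 0 E-boxes, Neurod1 holds 1, Neurod2 holds 3 and Neurod6 holds 4. The Neurod4 window is left out, since it lies inside the span that RefSeq gives this gene. An E-box was present in 65.2% of 27457 RefSeq promoters of this length, and 3.09% held 4 or more. The form CAGATG, searched on both strands and known as a preferred element of Neurogenin and NeuroD proteins, occurs in the Neurod2 window at 1 place and in the Neurod6 window at 2 places. It was in 13.7% of all promoters. These are matches of letters in the windows shown, and binding was not measured.

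The 5 genes were far apart in level, and their order was nearly the same in every pup. Neurod6 and Neurod2, which act in postmitotic pyramidal neurons, were highest, with medians over 24 pups of 98.7 and 88.4 TPM. Neurod1, a factor of late intermediate progenitors and newborn neurons, had a median of 16.4 TPM. Neurog1, the proneural factor of ventricular progenitors, had a median of 1.79 TPM. Neurod4, a factor of differentiating neuronal precursors, had a median of 0.302 TPM. Neurod6 exceeded Neurod2 in 17 of 24 pups with a median ratio of 1.06, so those neighbours were not separated. Neurod2 exceeded Neurod1, Neurod1 exceeded Neurog1, and Neurog1 exceeded Neurod4 in 24 of 24 pups, with median ratios of 5.58, 9.33 and 5.83. The deposited values fall with the genomic span of a gene, and Neurod4 has the longest RefSeq span of the 5, one that runs past the start of its promoter window. The part of this scale in its low place was not tested.

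Estimated read numbers, worked back from the step between low values and therefore approximate, were 24.3 to 68.4 M (megareads) per pup, with a group median of 49.7 M in MAM, 43.1 M in Low Protein, 42.6 M in Saline and 29.9 M in Poly I:C. Neurog1 rested on an estimated 41.8 to 246 reads a pup, and counting error alone gives a coefficient of variation of 8.91% at its median. Neurod1 had at least 1140 estimated reads in every pup, Neurod2 at least 7291 and Neurod6 at least 5208. Neurod4 could not be given a read number. Defining markers of the dissected region were present in every pup. Tbr1, a factor of early cortical neurons, had a saline mean of 14.5 ± 1.43 TPM (SD, n = 6).

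The pup Saline 2-1 was the lowest of all 24 pups in each of the 5 genes. Its Neurod1 was 8.38 TPM, against 14.4 to 17.7 in the other saline pups. Its Neurod2 was 50.8 TPM against 81.1 to 107.0, its Neurod6 was 46.8 against 79.9 to 119.7, its Neurog1 was 0.803 against 1.02 to 1.92 and its Neurod4 was 0.141 against 0.199 to 0.450. It therefore had between 46.6% and 58.9% of the median of the other saline pups. Over the 14232 genes of the wider set described below, this pup was the lowest in 9.27% and the highest in 8.32%. Other pups were as extreme over all genes. Poly I:C 1-3 was the lowest in 14.5% and the highest in 9.26%. Poly I:C 1-1 was the highest in 14.0% and Low Protein 2-2 in 8.78%. No further pup exceeded Saline 2-1 in either share.

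Regional markers differed in Saline 2-1. All 9 measured genes of the ganglionic eminence and striatum, the ventral forebrain that makes inhibitory neurons and lies beside the dissected tissue, were above every other saline pup, and 8 of 9 were the highest of 24 pups. Their summed level was 97.7 TPM in Saline 2-1, 46.0 to 62.4 in the other saline pups and 38.9 to 68.7 in the treated pups. Dlx2, a master factor of inhibitory neurons, was 25.5 TPM against 9.65 to 16.4 in the other saline pups. Of 8 neocortex and hippocampus markers, 6 were below every other saline pup and 5 were the lowest of 24. Fezf2, a factor of deep-layer projection neurons, was 10.4 TPM against 20.3 to 24.5, while Bcl11b, which striatal neurons also express, was 2.05 against 1.47 to 1.79. The summed level of this list was 31.2 TPM in Saline 2-1 and 45.6 to 53.6 in the other saline pups. In bulk tissue, fewer cells of a type and less RNA per cell cannot be told apart. The comparisons of the 5 genes with saline are given below with and without this pup, and for the gene lists the calls that changed without it are named or counted.

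**Figure D1:**
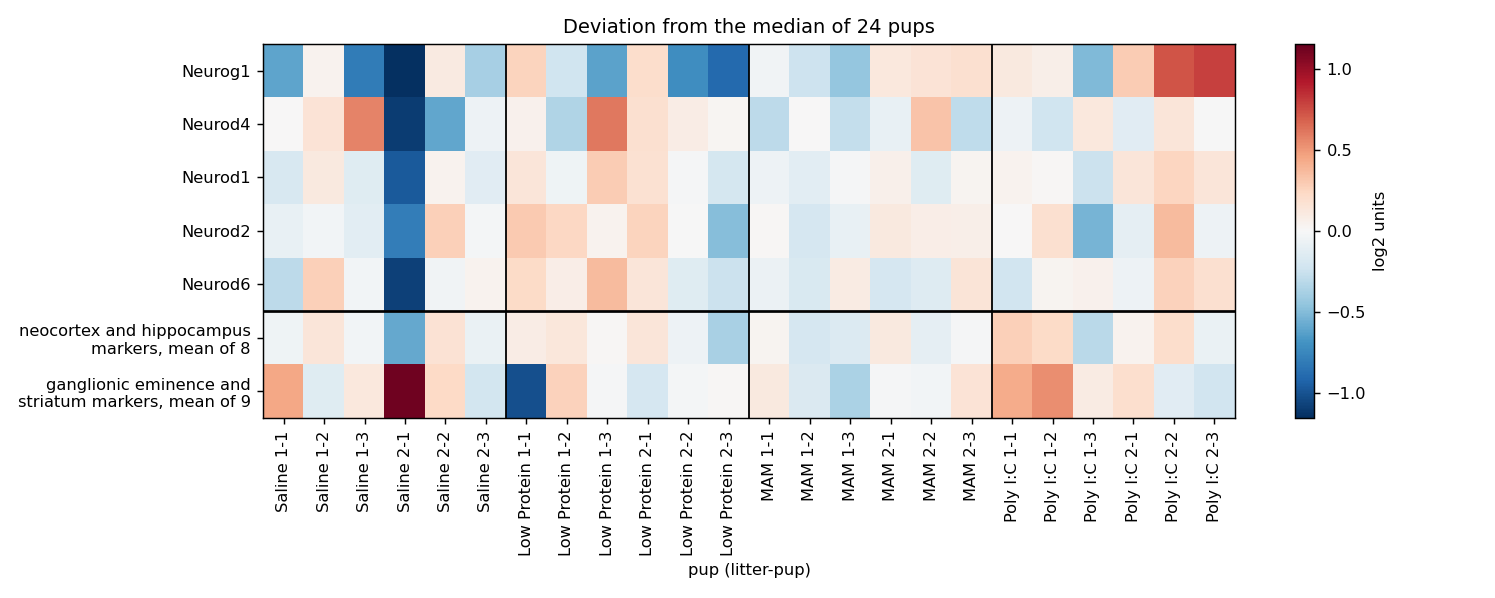
Heat map of the 5 genes and of 2 marker lists (8 and 9 genes) in the 24 pups, with red for higher and blue for lower. For a gene, each cell is the log2 level minus the median over all pups. For a list, the log2 level of each gene minus its mean over pups was averaged over the genes, and the median of this average over all pups was taken off. The column of Saline 2-1 is blue in all 5 genes, where it was the lowest of 24 pups, and red in the ganglionic eminence and striatum list.

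Against saline, the mean log2 level of all 5 genes was higher in each of the 3 treatments, 15 of 15 differences, and most of these differences were within the spread of pups. Without Saline 2-1, 9 of 15 lay above saline and 6 below. The comparisons share the saline pups, so the 3 directions of a gene are not separate observations. Several of the 5 genes also varied together over pups, as described below, so the genes are not separate observations either. The share of all genes higher than saline was not computed. The median difference over all genes tested was 0.0081 in Poly I:C, -0.05 in MAM and -0.0054 in Low Protein. No gene had a treated group that did not overlap saline, which occurred in 0.492% of genes in Poly I:C, 0.786% in MAM and 0.747% in Low Protein.

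**Figure D2:**
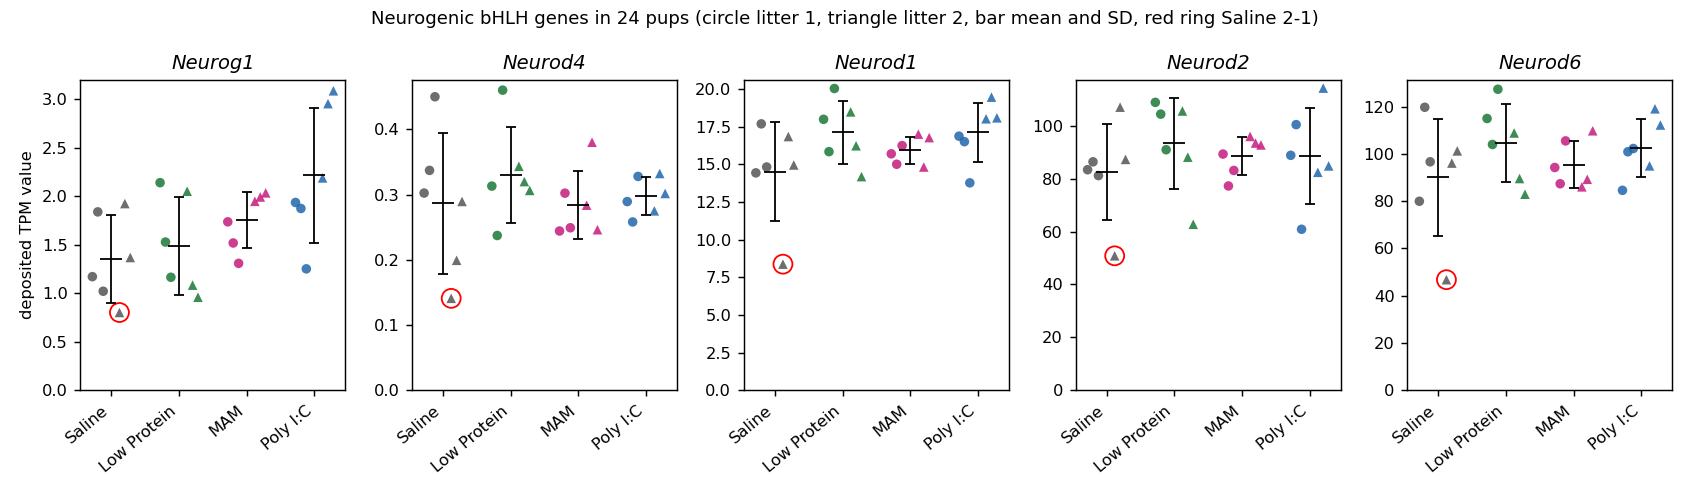
TPM of each gene in every pup on a separate linear axis, by maternal group (6 pups each), with circles for litter 1, triangles for litter 2, a bar for the group mean and error bars of 1 SD. Saline 2-1 is ringed in red and lies at the bottom of each panel, and Neurog1 in Poly I:C spreads from 1.25 to 3.09 TPM with litter 2 on top.

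Neurog1 rose in Poly I:C at the unadjusted threshold, a p of 0.05. Its 6 saline pups were at 1.17, 1.84, 1.02, 0.803, 1.92 and 1.37 TPM, and the 6 Poly I:C pups at 1.94, 1.87, 1.25, 2.19, 2.96 and 3.09 TPM, in the order of litter and pup number. The Poly I:C pups were higher in the main, with 4 of 6 above every saline pup, and Poly I:C 1-3 lay inside the saline range. The means were 1.35 ± 0.449 in Saline and 2.22 ± 0.697 TPM in Poly I:C (SD, n = 6 each). The log2 fold change was 0.71 with a 95% interval of 0.23 to 1.20, a 1.64-fold higher geometric mean, with an unadjusted p of 0.00559 and an adjusted p of 0.304 by limma. The exact two-sided permutation test over pups gave p = 0.0281. Without Saline 2-1 the log2 fold change was 0.58, with an unadjusted p of 0.0209 and an adjusted p of 0.576 by limma and an exact permutation p of 0.0541, which is past 0.05.

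Within Poly I:C the higher values of Neurog1 came from litter 2. Its 3 pups had a mean of 2.74 ± 0.485 TPM, while the 3 pups of litter 1 had 1.69 ± 0.378, beside 1.34 ± 0.435 and 1.37 ± 0.561 in the saline litters (SD, n = 3). With litter 1 left out, the log2 fold change was 1.07 with an unadjusted p of 0.000548 and an adjusted p of 0.0281 by limma, the only adjusted p under 0.05 among the settings tried for the 5 genes. With litter 2 left out, it was 0.36 and its unadjusted p by limma was 0.197. The call in Poly I:C therefore depended on litter 2.

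In the other treatments Neurog1 did not pass the test. The MAM pups lay between 1.31 and 2.04 TPM with a median of 1.84, narrower than saline, and a mean of 1.76 ± 0.292 (SD, n = 6). The log2 fold change was 0.43, with an unadjusted p of 0.0824 and an adjusted p of 0.47 by limma, and 0.29 without Saline 2-1. All 6 MAM pups were above the saline median, and 3 of 6 were above every saline pup. The Low Protein pups spanned 0.960 to 2.14 TPM with a median of 1.35 and had a mean of 1.49 ± 0.508 (SD, n = 6), so they overlapped most of the saline range. The log2 fold change there was 0.13 with an unadjusted p of 0.572 and an adjusted p of 0.926 by limma, and was -0.0031 without Saline 2-1.

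Ordered by mean, Neurog1 ran from Saline through Low Protein and MAM to Poly I:C, and no 2 neighbours in this order differed beyond their spread. MAM exceeded Low Protein by 0.29 on the log2 scale with an unadjusted p of 0.227 by limma, and Poly I:C exceeded MAM by 0.29 with a p of 0.230. Groups farther apart in the order did differ at the unadjusted threshold. Poly I:C exceeded Low Protein by 0.58, with an unadjusted p of 0.0209 and an adjusted p of 0.897 by limma, a test that uses saline pups only in the shared estimate of spread. Over the 4 groups jointly, the limma F test gave an unadjusted p of 0.0262 and an adjusted p of 0.246, and an unadjusted p of 0.0510 without Saline 2-1.

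Neurod1 passed the unadjusted threshold in both Poly I:C and Low Protein, and in neither without Saline 2-1. Its saline pups spanned 8.38 to 17.7 TPM with a median of 14.9, the Low Protein pups 14.2 to 20.0 with a median of 17.1, the MAM pups 14.8 to 17.0 with a median of 16.0 and the Poly I:C pups 13.8 to 19.5 with a median of 17.4. The groups overlapped, 3 of 6 Low Protein pups and 3 of 6 Poly I:C pups being above every saline pup. The log2 fold change was 0.27 in Low Protein, with an unadjusted p of 0.0457 and an adjusted p of 0.596 by limma, and 0.27 in Poly I:C, with a p of 0.0454 and an adjusted p of 0.485. The exact permutation p was 0.126 and 0.119. Without Saline 2-1 both log2 fold changes were 0.12, with unadjusted p of 0.191 and 0.189 by limma. Over all pups, litter as a random block also ended both calls, at an unadjusted p of 0.0532 for Low Protein and 0.0529 for Poly I:C by limma, while a limma fit of litter means gave 0.0498 and 0.0496. Both changes were smaller than the fold limit that the study set beside its p threshold for these treatments, which was not applied here. In MAM the log2 fold change was 0.17 (unadjusted p = 0.193, adjusted p = 0.550 by limma), and 0.02 without that pup.

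Neurod6, the highest of the 5, did not pass the test in any treatment. The saline pups lay between 46.8 and 119.7 TPM with a median of 96.4, and the Low Protein pups between 82.9 and 127.3 with a median of 106.4. The MAM pups lay between 86.0 and 109.7 with a median of 91.7, below the saline median, and the Poly I:C pups between 84.6 and 119.0 with a median of 101.6. Its log2 fold change was 0.26 in Low Protein, 0.23 in Poly I:C and 0.13 in MAM, with unadjusted p of 0.108, 0.145 and 0.398 by limma, and 95% intervals reaching up to 0.58. Without Saline 2-1 these values were 0.08, 0.05 and -0.04.

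Neurod2, which shares much of its function with Neurod6, did not pass the test either. Its saline pups lay between 50.8 and 107.0 TPM with a median of 84.8. The Low Protein pups spanned 62.7 to 108.8 TPM with a median of 97.6, the MAM pups 77.2 to 95.9 with a median of 91.0, and the Poly I:C pups 60.8 to 114.2 with a median of 86.8. The low end in each of Low Protein and Poly I:C was a single pup, Low Protein 2-3 and Poly I:C 1-3. Treated pups differed from saline by 0.19 in Low Protein, 0.13 in MAM and 0.11 for Poly I:C on the log2 scale, with unadjusted p of 0.235, 0.404 and 0.490 by limma, and 0.05, -0.0035 and -0.03 without Saline 2-1.

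Neurod4 lay below the mean of 1 TPM that the study asked of every group, so its tests come from a wider set of 14232 genes, those above the offset of 0.0001 in at least 6 pups. Its saline pups lay between 0.141 and 0.450 TPM with a median of 0.296, the Low Protein pups between 0.237 and 0.460 with a median of 0.316, the MAM pups between 0.244 and 0.380 with a median of 0.266 and the Poly I:C pups between 0.258 and 0.332 with a median of 0.296. The 4 groups overlapped almost fully. Low Protein lay 0.27 above saline on the log2 scale, MAM 0.06 and Poly I:C 0.14, with unadjusted p of 0.200, 0.755 and 0.494 by limma, in a set where 6.98%, 9.56% and 8.92% of genes passed. Without Saline 2-1 these values were 0.09, -0.12 and -0.04. Its 2 saline litters differed more than any treatment from saline, with 0.363 ± 0.077 in litter 1 and 0.210 ± 0.075 TPM in litter 2 (SD, n = 3).

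**Figure D3:**
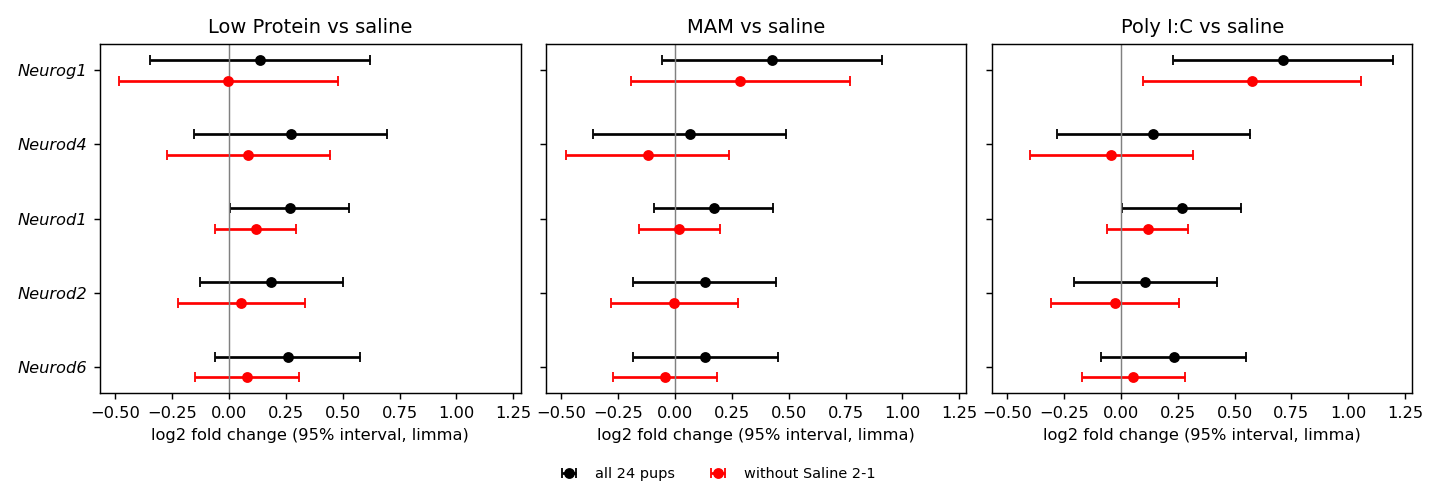
Log2 fold changes against saline for the 5 genes in the 3 treatments with 95% intervals from limma, over all 24 pups in black and without Saline 2-1 in red. The interval of Neurog1 in Poly I:C stays above 0 in both fits, and those of Neurod1 in Low Protein and Poly I:C reach below 0 in the red fit.

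Counted together, 1 of the 5 genes passed an unadjusted p of 0.05 in Low Protein, where 8.24% of the 5086 genes with every group mean above 1 did, 0 of 5 in MAM, where 11.2% did, and 2 of 5 in Poly I:C, where 9.95% did. The median log2 fold change of the 5 genes was 0.26, 0.13 and 0.23, beside -0.0054, -0.05 and 0.0081 over all genes tested. Without Saline 2-1 the counts were 0, 0 and 1, and the medians 0.08, -0.0035 and 0.05. The medians over all genes of the wider set were then -0.03, -0.09 and -0.01. The share of all genes called by limma without that pup was not computed. Between treatments, 1 of 5 passed for Poly I:C against Low Protein (5.31% of all genes), 0 of 5 for MAM against Low Protein (11.0%) and 0 of 5 for Poly I:C against MAM (23.1%). Over the 4 groups jointly, 1 of 5 passed (16.4%). With adjusted p under 0.05 the count was 0 in all of these, where the share of all genes was 0.0% in Low Protein and Poly I:C and 0.0197% in MAM against saline, 0.0983% for MAM and 0.0393% for Poly I:C against Low Protein, 3.46% for Poly I:C against MAM and 0.413% over the 4 groups. By the exact permutation test, 1 of 5 passed in Poly I:C, 0 of 5 in MAM and 0 of 5 in Low Protein, where 7.83%, 14.0% and 9.95% of all genes did. Without Saline 2-1 that test called 0 of 5 in each, and 5.56%, 20.1% and 8.32% of all genes.

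The share of higher calls over all genes moved with the scaling of the libraries, while the 5 genes kept their direction under each scaling tried. In MAM most calls turned from lower to higher, in Low Protein they did so under 1 of 2 other scalings, and in Poly I:C most stayed lower. Of all genes called, 42.7% were higher in Poly I:C, 27.3% in MAM and 44.4% in Low Protein. After rescaling by the median of ratios the shares were 45.8%, 80% and 58.9%, and after upper-quartile scaling 22.3%, 76.3% and 39.5%. Neurog1 in MAM passed the unadjusted threshold under both of these scalings, at log2 fold changes of 0.49 and 0.48.

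The pups of a group differed in these genes jointly. After each group mean was taken off, Neurog1 and Neurod2 had a Pearson r of 0.80 over 24 pups and a Spearman rho of 0.77, with adjusted permutation p of 3.3e-05 and 0.0004. Neurod1 and Neurod6 had r of 0.86 and rho of 0.65, Neurod1 and Neurod2 had 0.79 and 0.53, and Neurog1 and Neurod1 had 0.69 and 0.66. For these 3 pairs the adjusted permutation p of r was 3.3e-05, 3.3e-05 and 0.0002, and that of rho was 0.0031, 0.0211 and 0.0031. The 10 pairs were computed together and adjusted together, and the pups share litters, so they are not fully independent. The share of all gene pairs that reach such r was not computed. Neurog1, Neurod1, Neurod2 and Neurod6 each had a higher r with a gene outside the members, as listed below.

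Those 4 relations did not rest on Saline 2-1. Without it r was 0.76 for Neurog1 and Neurod2, 0.65 for Neurod1 and Neurod6, 0.68 for Neurod1 and Neurod2 and 0.69 for Neurog1 and Neurod1. With the 2 pups farthest from the median of the first gene left out, r was 0.70, 0.79, 0.60 and 0.59. Neurod2 and Neurod6 had r of 0.63 and rho of 0.41 (adjusted permutation p = 0.0026 and 0.0752), and r of 0.27 without Saline 2-1 and Low Protein 2-3, so this relation rested on those pups. Neurog1 and Neurod6 had r of 0.56 and rho of 0.42 (adjusted permutation p = 0.0049 and 0.0752), r of 0.49 without the 2 farthest pups, and r of 0.44 without Saline 2-1 alone (adjusted permutation p = 0.0712).

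Neurod4 stood apart from the other 4. It was also the lowest in level, with a median of 0.302 TPM, and had no read number. Its RefSeq span was 87201 bases, against 1520 for Neurog1. The values fall with span, so a low level need not mean few reads. The part of counting error in the low r of Neurod4 was not tested. Its r with Neurod6 was 0.56, with Neurod1 0.52, with Neurod2 0.21 and with Neurog1 0.09, and its rho with them was 0.36, 0.29, -0.0052 and 0.0061. Without Saline 2-1 these r were 0.16, 0.05, -0.24 and -0.21. The adjusted permutation p of r was 0.0118, 0.0202, 0.356 and 0.687 over all pups and between 0.397 and 0.83 without that pup, so the relations of Neurod4 with Neurod6 and Neurod1 rested on it.

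Over 14231 other genes, those most like each member across the 24 pups were listed by the same centred r, as a description. For Neurog1 they were Tfap2c at 0.87, Dmrt3 at 0.86 and Nfatc4 at 0.86. Tfap2c is a factor of basal progenitors and Dmrt3 a patterning factor of the medial cortex. For Neurod1 they were Lhx2, the cortical selector gene, at 0.95, Zfp238, a repressor of cortical neurogenesis genes, at 0.91 and Palmd at 0.91. For Neurod2 they were Adamts18 at 0.94, Kcng1 at 0.93 and Carmil3 at 0.92. For Neurod6 they were LOC100910558 at 0.96, Dok5 at 0.91 and Map2k6 at 0.90. For Neurod4 the highest were Kcnab1 at 0.77, Chac2 at 0.74 and Pdcl at 0.73.

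The top 3 changed in part or whole for each gene when Saline 2-1 was left out, though the earlier neighbours of Neurog1 kept r of 0.85, 0.85 and 0.84 and Adamts18 kept 0.92 with Neurod2. Neurog1 was then nearest to Fam110d at 0.86, Dmrta2, a patterning factor of the dorsal telencephalon, at 0.86 and Nhlh1 at 0.86. Neurod1 was nearest to Masp1 at 0.86, Palmd at 0.85 and Sstr2, a somatostatin receptor of newborn neurons, at 0.85. Neurod6 stayed nearest to LOC100910558, at 0.91, followed by Arl6ip6 at 0.88 and Fam60a at 0.86. Neurod2 was nearest to Mta2 at 0.95, Mical1 at 0.95 and Rcor2 at 0.94, and Neurod4 to Il7 at 0.67, Cpn1 at 0.66 and Prps2 at 0.64.

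Few genes in the rest of the cascade passed the test. The list holds 20 genes that act beside or downstream of the neurogenic factors, and it was tested in the wider set, where 3.79% of genes were called higher and 5.14% lower in Poly I:C, 2.18% and 7.38% in MAM, and 2.75% and 4.24% in Low Protein. In Low Protein 0 of 20 passed in either direction, and without Saline 2-1 Bhlhe22, a bHLH factor of cortical neurons, was lower at -0.19 (unadjusted p = 0.0448 by limma). In MAM 2 of 20 were higher and 1 lower, while Poly I:C had 1 of 20 higher and 0 lower. The list's median log2 fold change was -0.02, 0.0092 and 0.07 for Low Protein, MAM and Poly I:C, beside -0.02, -0.07 and 0.0018 over all genes of the set. Adjusted p under 0.05 was reached by 0 of 20 in each comparison and by 0.0%, 0.0141% and 0.0% of all genes of the set.

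In Poly I:C the gene called was Nhlh1, a bHLH factor of newborn neurons. It was at 3.02 to 6.22 TPM in saline pups and 5.46 to 8.56 in Poly I:C pups, with a log2 fold change of 0.37, an unadjusted p of 0.0316 and an adjusted p of 0.505 by limma. Without Saline 2-1 it was 0.21 with a p of 0.112, and the only gene called was then Gadd45g, a stress and differentiation gene, with a log2 fold change of 0.33 and an unadjusted p of 0.0327. Neurog1 in this wider fit had an unadjusted p of 0.00886, and Neurod1 in Poly I:C had 0.0568, on the other side of the threshold from the narrower fit.

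In MAM, Mfng and Ppp1r17 rose and Rnd3 fell at the unadjusted threshold. Mfng, a glycosyltransferase that modifies Notch, was at 1.57 to 2.11 TPM in saline and 1.97 to 2.24 in MAM, a log2 fold change of 0.22 with an unadjusted p of 0.0442 and an adjusted p of 0.522 by limma. Ppp1r17, a phosphatase inhibitor known from intermediate progenitors, had means of 0.445 and 0.596 TPM, a log2 fold change of 0.45 with an unadjusted p of 0.0213 and an adjusted p of 0.522 by limma. Rnd3, a small GTPase of migrating neurons, fell by 0.29 on the log2 scale, from a mean of 2.41 to 1.96 TPM, with an unadjusted p of 0.00609 and an adjusted p of 0.507 by limma. Without Saline 2-1 the 4 genes called in MAM were all lower, namely Rnd3, Dcx, Elavl4 and Bhlhe22, and neither Mfng nor Ppp1r17 passed. Dcx, the microtubule protein of migrating neurons, then had a log2 fold change of -0.27 with an unadjusted p of 0.0362. The share of all genes called by limma without Saline 2-1 was not computed. By the exact permutation test without this pup, 16.7% of the wider set was called in MAM, in either direction. These 4 calls are therefore not read as a result about the cascade.

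The partners and inhibitors of bHLH factors were the E proteins Tcf3, Tcf4 and Tcf12, the inhibitors Id1, Id2, Id3 and Id4, and the Notch-driven repressors Hes1, Hes5 and Hey1. In Low Protein and Poly I:C 0 of 10 passed. In MAM 2 of 10 were higher, Hes1 with a log2 fold change of 0.27 (unadjusted p = 0.0254 by limma) and Hey1 with 0.25 (unadjusted p = 0.0233 by limma), both with an adjusted p of 0.522. Hes1 had means of 3.11 ± 0.484 TPM in saline and 3.73 ± 0.297 in MAM (SD, n = 6), and the groups overlapped. Without Saline 2-1 Hey1 passed and Hes1 did not. In Poly I:C Hes1 lay just past the threshold with a log2 fold change of 0.23 and an unadjusted p of 0.0504.

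**Figure D4:**
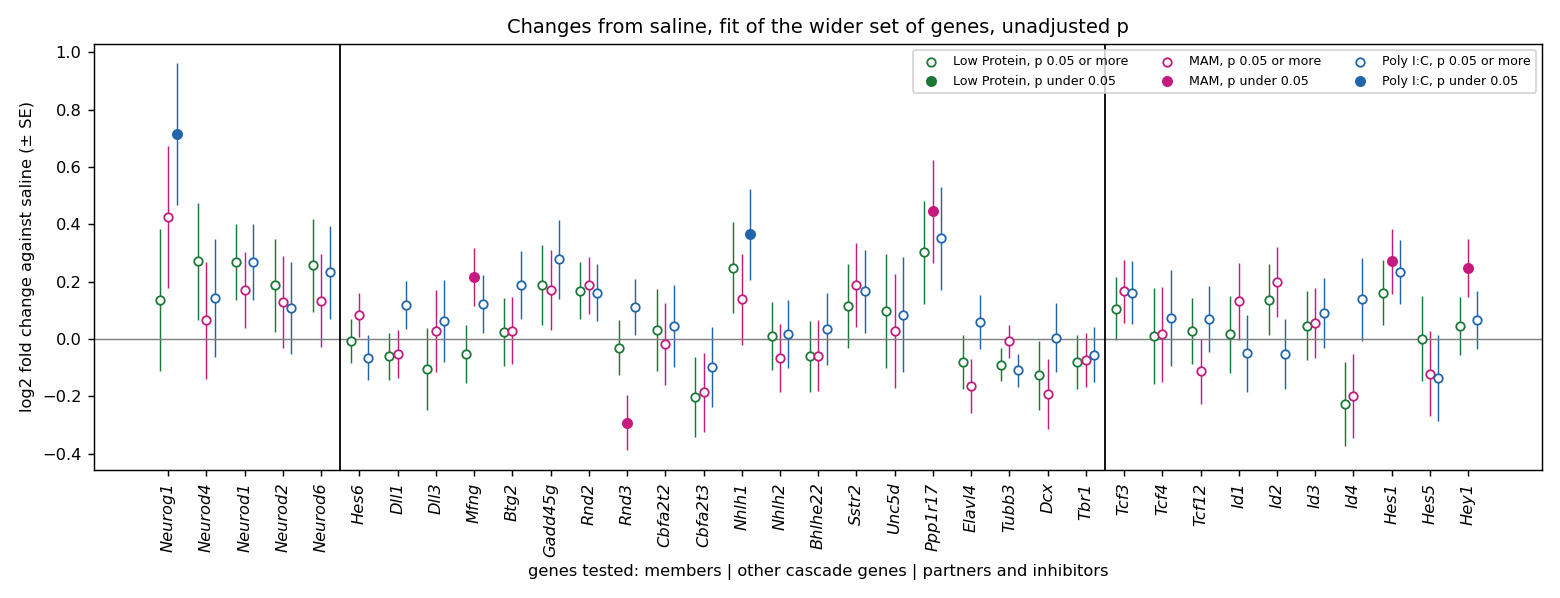
Log2 fold changes against saline with standard errors from limma for the 5 genes, 20 other cascade genes and 10 partners and inhibitors, in the fit of 14232 genes, with filled points for an unadjusted p under 0.05. Neurog1 in Poly I:C is the highest point, at 0.71, and few other points are filled, with Mfng, Ppp1r17, Hes1 and Hey1 above 0 and Rnd3 below 0 in MAM.

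Radial glia, the cells in which the Neurogenins are switched on, were followed by 10 genes. In Poly I:C 2 of 10 were higher, Pax6 with a log2 fold change of 0.28 and Sox9 with 0.27 (unadjusted p = 0.0242 and 0.0245 by limma, adjusted p = 0.476 for each). Without Saline 2-1 Sox9 and Sox2 passed, and Pax6 had a log2 fold change of 0.21 and an unadjusted p of 0.0739 by limma. In Low Protein Hopx, a gene of outer radial glia, and Emx2 were higher, by 0.42 and 0.26 (unadjusted p = 0.00483 and 0.0261 by limma), and Hopx alone passed without that pup. In MAM Hopx was higher by 0.35 (unadjusted p = 0.0162 by limma), and 0 of 10 passed without that pup.

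Of 10 proliferation genes, 4 were higher in MAM, the mitotic genes Ccnb2, Aurkb, Ccnb1 and Cdk1, where 2.18% of all genes of the wider set were called higher. Their log2 fold changes were 0.30, 0.29, 0.20 and 0.22 (unadjusted p = 0.00209, 0.0189, 0.0339 and 0.0300 by limma). The same 4 passed without Saline 2-1. In Poly I:C Pcna, the replication clamp, was higher by 0.24 (unadjusted p = 0.0268 by limma), also without that pup, and in Low Protein 0 of 10 passed. None of the radial glia or proliferation genes had an adjusted p under 0.05.

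Some genes of the regional and microglia lists passed the test as well. Over the 9 ganglionic eminence and striatum genes, the median log2 difference from saline was -0.14 in Poly I:C, -0.26 in MAM and -0.39 in Low Protein. At the unadjusted threshold 0, 2 and 4 of 9 were lower, beside 5.14%, 7.38% and 4.24% of the wider set. They were Dlx1 and Lhx6 in MAM, and Dlx1, Dlx5, Gad2 and Lhx6 in Low Protein. Without Saline 2-1 the medians were 0.01, -0.11 and -0.25, with 0, 0 and 1 lower, namely Lhx6. The share of all genes in that fit was not computed. The paper treats Dlx1, Dlx5 and Lhx6 as genes of developing interneurons, which migrate into the hippocampus and cortex. The summed level of the 9 genes was 46.0 to 97.7 TPM for Saline, 46.2 to 68.7 for Poly I:C, 42.7 to 58.9 for MAM and 38.9 to 58.1 for Low Protein. The 8 neocortex and hippocampus markers had medians of 0.18 in Poly I:C, 0.08 in MAM and 0.16 in Low Protein, and of 0.10, -0.05 and -0.02 without Saline 2-1. At the unadjusted threshold Lhx2 was higher in each treatment, by 0.28, 0.25 and 0.25, and in Low Protein Emx2 was higher by 0.26 and Bcl11b was lower, at -0.29. None of these passed without that pup. No marker of either list was at 0 in every pup. The part of regional content in the differences of Neurog1 and Neurod1 was not tested. All 5 thalamus genes were higher than saline in Poly I:C, with a median log2 difference of 0.34, and 0.50 without Saline 2-1. In MAM and Low Protein 1 and 2 of 5 were higher. The summed level of the 5 was 0.856 to 5.10 TPM in Poly I:C and 1.10 to 3.86 in Saline. Of them Lhx9 alone passed in Poly I:C, by 0.48 (unadjusted p = 0.0463 by limma, and 0.0528 without that pup). For 6 microglia genes C1qa and C1qb were higher in MAM by 0.39 and 0.33 (unadjusted p = 0.0353 and 0.0425 by limma, and 0.0608 and 0.0388 without that pup). In the choroid plexus, meninges, blood and endothelium lists 0 genes passed in any treatment.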

How the data were processed

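RNA of 24 pups was sequenced with a stranded mRNA kit as paired reads. The authors trimmed the reads, aligned them to rn6 with STAR 2.4.1d and quantified them against RefSeq transcripts with the E/M tool of Partek Flow. The deposited values are TPM to which the authors added an offset of 0.0001. They sum to 70350.1 in each pup and fall with genomic span, so they are not counts, and 20.9% equal the offset. The file holds 17420 genes. Depth is not given and was estimated from the step between low values with spans from GRCr8, which 86.6% of genes had, where 49.1 to 54.4% of low values were within 0.05 of a whole read and chance gives 10%. No count test was run. The counting coefficient of variation covers counting error only, while limma's intervals cover the spread between pups.

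Log2 values were compared with limma 3.58.1 in R 4.3.3, with all 24 pups in a fit of group, over the 5086 genes with every group mean above 1 (the study's limit) or, for Neurod4 and the lists, over 14232 genes above the offset in at least 6 pups. The study's unadjusted p of 0.05 was used, without the fold limit it added for Poly I:C and Low Protein, with Benjamini-Hochberg adjusted p beside it. Single members were compared by exact two-sided permutation of the mean log2 value over 924 splits of 6 against 6, for which the smallest p is 0.00216, or 462 splits without Saline 2-1. Correlations used 100000 permutations, whose smallest p is 1e-05. The tests were tested on simulated data before use. Members were matched by symbol, and promoter windows came from RefSeq in GRCr8, all 5 matching by symbol, the Neurod4 window lying inside the gene's span.

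Groups came from the sample names, whose number was read as litter, then pup. The members and gene lists were chosen with earlier results of these data known. Genes named are the members, list genes past the unadjusted threshold, and the 3 genes most like each member. Tbr1, Dlx2, Fezf2 and Bcl11b were picked after values were seen. Tbr1 stands in the cascade and neocortex lists, Emx2 in the radial glia and neocortex lists, and Prox1 in the neocortex and thalamus lists. The alternatives covered filter, scaling, pseudocount, pups in the fit, litter, replicate number, variance trend and leaving out each pup and litter. Of the neocortex and hippocampus markers, 1 is not reported here and is left out of the list. Leaving Saline 2-1 out of the permutation tests, lists and correlations was chosen after seeing the data.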

Additional observations from a re-analysis of the deposited data

Results flagged for a closer look

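In the saline group, Saline 2-1 lay apart from the other 5 pups by Dixon's test of the gap to the nearest pup over the range, with Neurod1 at 8.38 TPM and Neurod2 at 50.8 TPM. The summed neocortex and hippocampus markers were also set apart in Saline 2-1, at 31.2 TPM. Of 28 sets of 6 pups examined, 3 were set apart, while chance gives about 1 in 20 for a single set. The 3 are the same pup, and Neurod1 and Neurod2 varied together. The sets are therefore not separate observations, and their count does not measure chance. Saline 2-1 was not set apart by this test for Neurog1, Neurod4, Neurod6 or the summed ganglionic eminence and striatum markers.

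The change of Neurog1 differed between Poly I:C and Low Protein by 0.58 on the log2 scale (unadjusted p = 0.0209, adjusted p = 0.897 by limma), higher in Poly I:C. The unadjusted p was 0.0155 without Saline 2-1, which enters this test only through the estimate of spread.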

How the results depend on the processing

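Over 20 results for single genes and up to 43 alternatives each, 769 values kept direction and side of the threshold, 47 lost the call, 17 gained it and 14 reversed, all 14 on leaving out a pup or a litter. The 20 include the joint test of the 4 groups for each gene, which has no direction and could not reverse. Most of the 769 belong to results that had no call in the main fit. Counts of members past an unadjusted p of 0.05 (2 in Poly I:C, 0 in MAM, 1 in Low Protein) moved as follows. The wider gene set, the fit of only the pups compared, litter as a random block and the replicate block each gave 1 in Poly I:C and 0 in Low Protein. Upper-quartile scaling and a limit of 2 on every group mean, which leaves Neurog1 out, gave 1 in Poly I:C. Median-of-ratios and upper-quartile scaling and the fit of only the pups compared gave 1 in MAM. The limit of 2 gave 0 for Poly I:C against Low Protein and 0 for the 4 groups jointly, where litter means also gave 0. Same-numbered pups had a median r of 0.16 over 36 pairs (range -0.42 to 0.56), against -0.02 over 180 pairs of other numbers, and 12 of 24 pups were closest to their own number. This is a hint from the data, not the design, and since not every pair correlated, the replicate block is given only here.

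Leaving out a pup or a litter gave counts of 0 to 4 in Poly I:C, 0 to 1 in MAM, 0 to 3 in Low Protein, 0 to 1 for Poly I:C against Low Protein, 0 to 1 for Poly I:C against MAM and 0 to 1 for the 4 groups. The highest came without Saline litter 1. Log2 fold changes that reversed ranged, in Low Protein, from -0.0051 to 0.27 for Neurog1 and -0.15 to 0.69 for Neurod4. In MAM they ranged from -0.35 to 0.48 for Neurod4, -0.0035 to 0.22 for Neurod2 and -0.045 to 0.30 for Neurod6, and in Poly I:C from -0.27 to 0.56 for Neurod4 and -0.026 to 0.21 for Neurod2. In the permutation tests without Saline 2-1, the differences that reversed were -0.0031 for Neurog1 in Low Protein, -0.12 for Neurod4, -0.0035 for Neurod2 and -0.045 for Neurod6 in MAM, and -0.043 for Neurod4 and -0.026 for Neurod2 in Poly I:C. Neurog1 in Poly I:C kept its direction in all 42 alternatives that could be fitted and lost its limma call in 1, without Poly I:C litter 2, where the log2 fold change was 0.36. Of the 4 genes with an estimated read number, Neurog1 had the fewest reads. The causes were not tested.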
